A study of Mus musculus with 4 samples.

Results

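*Foxp3* and 4 genes of the Ikaros family, *Ikzf1*, *Ikzf2*, *Ikzf3* and *Ikzf4*, were followed through hepatic T cells of mice with metabolic dysfunction–associated steatohepatitis (MASH). The 5 genes were taken by symbol from the 32285 genes counted in each of 2 single-cell RNA (scRNA) libraries. Cells of the liver labelled as CD4 T cells were sequenced from WT mice and from dKO mice, which carry floxed *Nr4a1* and *Nr4a2* alleles and a Cre driven by *Cd4* (Nr4a1 fl/fl Nr4a2 fl/fl Cd4Cre). Both groups were male and ate a diet without choline, low in methionine (0.1%) and with 60 kcal% fat (CD), over 8 weeks, and each library pooled 2 mice. The mice cannot be told apart within a library, and the age of these mice is not given in the sources used here. With 1 library per genotype no test between genotypes was possible, and a difference between the libraries has no replicate check. Every interval covers counting error only and is an exact 95% interval, except that of a difference in points. The latter runs between the extremes of 2 exact intervals and is wider. *Cd4* drives Cre in T cells that have passed through its expression in the thymus, and other cells of the preparation were not the intended target.

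*Foxp3* encodes the forkhead factor that defines regulatory T cells (Tregs), lymphocytes that restrain other immune cells and that collect in inflamed tissue. The Ikaros family is a group of zinc finger factors of the lymphoid lineage, whose N-terminal fingers bind DNA and whose C-terminal fingers pair the proteins with each other. *Ikzf1* encodes Ikaros, *Ikzf2* Helios, *Ikzf3* Aiolos and *Ikzf4* Eos, and Helios and Eos are known as partners of Foxp3 in Tregs, while Ikaros and Aiolos are best known for repressing or shaping gene programmes of conventional T cells and B cells.

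The family's shared part is shown first, because reads from near-identical genes can be counted for the wrong one. It is the second zinc finger from the N terminus, which contacts DNA. In human cells it is the part of Ikaros and Aiolos that thalidomide-type drugs recruit to cereblon. Each run is 63 bases of coding sequence read 5′ to 3′ from the GENCODE M21 transcripts (GRCm38), and the capitals mark the codons of the cysteines and histidines that hold the zinc ion.
Ikzf1: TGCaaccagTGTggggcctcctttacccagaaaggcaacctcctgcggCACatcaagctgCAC
Ikzf2: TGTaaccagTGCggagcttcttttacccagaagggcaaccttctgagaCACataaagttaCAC
Ikzf3: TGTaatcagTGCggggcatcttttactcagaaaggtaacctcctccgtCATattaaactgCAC
Ikzf4: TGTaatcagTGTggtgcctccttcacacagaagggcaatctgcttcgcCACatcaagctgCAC
All 4 runs encode the same 21 residues, yet pairs of them shared only 76.2% to 84.1% of their bases. The run of *Ikzf1* lies in exon 6 at chr11:11754024-11754086 on the plus strand, and those of *Ikzf2* (chr1:69570581-69570643), *Ikzf3* (chr11:98488940-98489002) and *Ikzf4* (chr10:128640229-128640291) lie in exon 5 of the transcript read, on the minus strand. Over whole transcripts the longest exact stretch that any 2 of the 5 genes shared was 32 bases, between *Ikzf2* and *Ikzf4*. Each of the 4 Ikaros genes held 5 matches of the C2H2 finger pattern in its longest coding sequence, and *Foxp3* held none with that spacing.

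In GRCm38, *Foxp3* (ENSMUSG00000039521) spans chrX:7573644-7595245, *Ikzf1* (ENSMUSG00000018654) chr11:11685003-11772926, *Ikzf2* (ENSMUSG00000025997) chr1:69531214-69687245, *Ikzf3* (ENSMUSG00000018168) chr11:98464902-98546031 and *Ikzf4* (ENSMUSG00000002578) chr10:128630843-128645991. *Ikzf2* is the longest at 156032 bases and *Ikzf4* the shortest at 15149 bases. *Foxp3* overlaps *Flicr*, a non-coding RNA annotated on the same strand, which had 20 unique molecular identifiers (UMIs) in Treg-type cells of the WT-labelled library and 126 in those of the dKO-labelled library. The 2 non-coding genes on the same strand within *Ikzf2* had 12 and 6 UMIs in the former cells. In the same cells *Foxp3* had 604 and 4703 UMIs and *Ikzf2* 1875 and 13407, so the overlapping genes held few UMIs beside them.

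The libraries held 10602 cells with 23494155 UMIs (WT) and 17645 cells with 37966611 UMIs (dKO), at a median of 1679 and 1685 UMIs in the 10556 and 17462 cells kept, and 245 barcodes occurred in both. *Nr4a1* and *Nr4a2*, the genes targeted in dKO mice, were higher in the dKO-labelled library. *Nr4a1* had 725 CPM in all cells of the WT-labelled library and 1659 CPM in those of the dKO-labelled library, and *Nr4a2* had 183 and 306 CPM, where CPM is UMIs per 1000000 UMIs. In T cells, the target of Cre, *Nr4a1* had 731 and 1916 CPM and *Nr4a2* 204 and 439 CPM, and in plasmacytoid-like cells, which were not the target, *Nr4a1* had 606 and 1265 CPM and *Nr4a2* 28.5 and 50.3 CPM. Counts over a whole gene do not show whether the floxed exons are gone, and the libraries are therefore called by their labels. Whether the labels are exchanged was not tested, and every direction between the libraries below rests on them. By flow cytometry the study reports more Foxp3-positive cells among liver CD4 T cells of dKO than of WT mice fed CD. The gate described below took 23.9% of T cells as Treg-type in the WT-labelled library and 67.2% in the dKO-labelled library. *Cd4* itself had between 217 and 270 CPM in the Treg-type, type 1-like, naive-like and other T cells of the WT-labelled library, against 665 to 952 CPM in the dKO-labelled library, and *Cd8a* had at most 2 UMIs in any of these classes. *Cd8b1*, the other CD8 chain, had 6.65 CPM (32 UMIs) in Treg-type cells of the former and 18.0 CPM (242 UMIs) in those of the latter, a log2 ratio of 1.44 (0.90 to 2.02), and its part in the results was not tested.

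Cells were gated on marker genes that include none of the 5 genes. T cells carried at least 2 of 6 T cell receptor complex genes, and Treg-type cells were T cells with at least 3 of *Ctla4*, *Tigit*, *Il2ra*, *Tnfrsf18*, *Tnfrsf4*, *Izumo1r* and *Capg*. The gate took 1676 of 7001 T cells of the WT-labelled library (23.9%, 22.9 to 25.0) and 7508 of 11168 of the dKO-labelled library (67.2%, 66.4 to 68.1), with a further 207 and 335 cycling Treg-type cells. The other T cells fell into type 17-like (69 and 144 cells), type 1-like (1205 and 558), naive-like (882 and 393), cycling (276 and 76) and remaining T cells (2686 and 2154). These names stand for the gates alone. Killer cell receptor genes (*Klra9*, *Klra7*, *Klra1*, *Klrc1*, *Klrc2* and *Klrk1*) and the gamma chain genes *Tcrg-C2* and *Tcrg-C4* led the type 1-like class by fold, *Klrk1* being the one gate gene among its top 10, and of the top 10 of the Treg-type class, led by *Gcg* and *Penk*, only *Tnfrsf4* was a gate gene. Plasmacytoid-like cells, which also carry CD4 on their surface, numbered 1271 and 3204, and myeloid-like cells 111 and 162. The Treg-type class differed in makeup between the libraries. The 7 Treg gate genes summed to 2962 CPM in it in the WT-labelled library and 7484.5 CPM in the dKO-labelled library, and 5 further Treg genes outside the gate to 384 and 1155 CPM. Its cells had a median of 2332.5 UMIs in the WT-labelled library and 1454 in the dKO-labelled library, the 6 naive gate genes summed to 768 and 304 CPM in it, and the 6 type 1 gate genes to 2483 and 8366 CPM. The 10 myeloid gate genes summed to 85.6 and 117 CPM in Treg-type cells, with *Clec4f* at 0 in the WT-labelled library. The 6 plasmacytoid gate genes summed to 13.7 and 72.0 CPM with none at 0, of which *Ccr9*, also a T cell homing receptor, gave 1.87 and 47.3 CPM. The 6 B cell gate genes summed to 336 and 985 CPM, of which *Cd74* gave 329 and 972 CPM, with *Ms4a1* at 0 in the WT-labelled library. The part of these differences in the results was not tested.

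*Foxp3* was highest in the Treg-type class of both libraries, although it had no place in the gate. It had 125.5 CPM (116 to 136) in the Treg-type cells of the WT-labelled library and 350 CPM (340 to 360) in those of the dKO-labelled library. Cycling Treg-type cells followed with 91.3 and 184 CPM. The remaining T cells had 25.8 and 95.1 CPM, and the type 1-like, naive-like, type 17-like and cycling T cells outside the Treg-type class had between 0 and 16.1 CPM. In type 17-like cells of the WT-labelled library *Foxp3* was not detected, and the exact interval there reaches up to 24.6 CPM. Plasmacytoid-like cells, which should lack *Foxp3*, had 2.88 and 4.71 CPM, which is taken as the background.

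*Ikzf2*, which encodes Helios, followed *Foxp3* most closely among the Ikaros genes. It had 389.7 CPM (372 to 408) in Treg-type cells of the WT-labelled library and 998 CPM (981 to 1015) in those of the dKO-labelled library. The cycling Treg-type cells had 284 and 583 CPM. In the other T cell classes the level ran from 33.1 (naive-like) to 106.5 CPM (remaining T cells) in the WT-labelled library and from 44.2 (type 17-like) to 362 CPM (remaining T cells) in the dKO-labelled library. Naive-like cells had the least *Ikzf2* of the T cells in the former library, and in the latter the naive-like and type 17-like intervals overlapped (58.7 to 103 and 22.0 to 79.0 CPM). The plasmacytoid-like cells had 38.9 and 53.3 CPM, within the range of those classes.

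*Ikzf4*, which encodes Eos, was the sparsest of the members and was also highest in Treg-type cells of the dKO-labelled library. It had 18.1 CPM (14.5 to 22.3) in the Treg-type cells of the WT-labelled library, from 87 UMIs, and 60.1 CPM (56.1 to 64.4) in those of the dKO-labelled library, from 808 UMIs. Its level was 7.14 and 22.0 CPM in cycling Treg-type cells and 6.46 and 23.8 CPM in the remaining T cells. In the plasmacytoid-like cells it had 0 UMIs in the WT-labelled library and 8 in the dKO-labelled library. The type 17-like cells of the former library had 3 UMIs of *Ikzf4*, with an interval of 4.12 to 58.4 CPM that reaches over its Treg-type level. The B cell-like and innate lymphoid-like cells had 0 UMIs in both libraries, and with so few cells their intervals reach up to 66.0 and 32.5 CPM (WT) and 57.0 and 72.6 CPM (dKO), which overlaps the Treg-type intervals.

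*Ikzf1*, which encodes Ikaros, had its highest level outside the Treg-type class. Of the gated classes it was highest in naive-like T cells, at 428.5 CPM (402 to 457) in the WT-labelled library and 291.5 CPM (252 to 336) in the dKO-labelled library. Treg-type cells had 289.5 CPM (274.5 to 305) in the first and 135 CPM (129 to 142) in the second. In the WT-labelled library the cycling, Treg-type and cycling Treg-type classes had the lowest levels of the T cells, between 274 and 302 CPM with overlapping intervals, and in the dKO-labelled library the Treg-type, cycling Treg-type and type 17-like classes did, between 135 and 161 CPM, with overlapping intervals as well. The naive-like interval overlapped those of the type 17-like (282 to 484 CPM), B cell-like (205 to 531, from 30 cells) and innate lymphoid-like cells (207 to 418, from 40 cells) in the former library, and those of the type 1-like (189.8 to 253), cycling (174 to 279.6) and plasmacytoid-like cells (265 to 285.5) in the latter. The plasmacytoid-like cells, a lineage known to need Ikaros, had 367 and 275 CPM of *Ikzf1*, and the myeloid-like cells had the least of the classes in the plot, with 102 and 64.0 CPM.

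*Ikzf3*, which encodes Aiolos, marked another class. It was highest in type 17-like T cells, at 746 CPM (614 to 898) in the WT-labelled library and 638 CPM (543 to 745) in the dKO-labelled library, from 69 and 144 cells. In the former its interval overlapped that of the 30 B cell-like cells (333 to 724.5 CPM). Naive-like T cells had the lowest level of the T cell classes, at 97.6 and 81.6 CPM, below the intervals of every other T cell class. Treg-type, type 1-like, cycling and remaining T cells lay between 202 and 296 CPM. *Ikzf3* was also low in the plasmacytoid-like cells, with 22.0 and 15.6 CPM, where *Ikzf1* was among the highest.

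**Figure D1:**
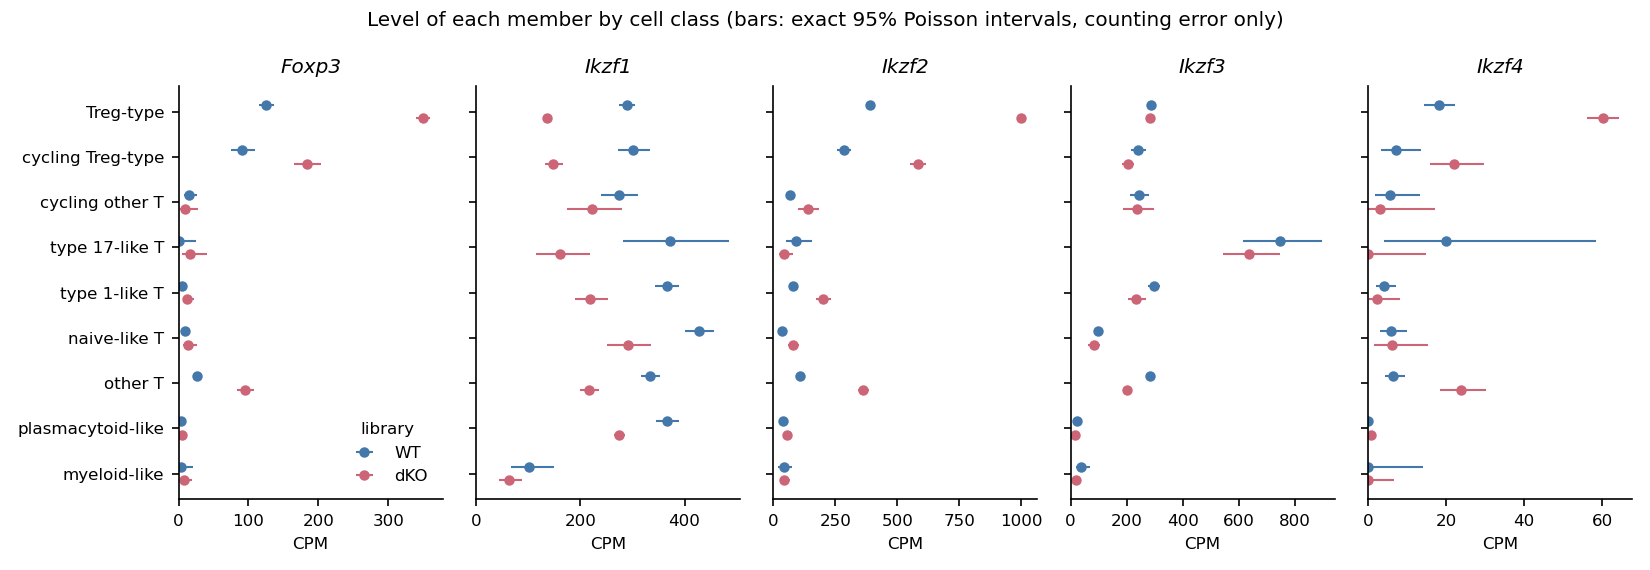
Level of each gene (x axis, CPM, with a separate scale for each gene) in 9 gated cell classes (y axis) in the libraries labelled WT (blue) and dKO (red). Points are CPM of summed UMIs and bars exact 95% Poisson intervals. *Foxp3*, *Ikzf2* and *Ikzf4* peak in Treg-type cells of the dKO-labelled library, *Ikzf1* in naive-like cells and *Ikzf3* in type 17-like cells.

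Within each library the Treg-type cells were then set against the other T cells, which keeps the 2 libraries apart. In the WT-labelled library *Foxp3* was 8.24-fold higher in Treg-type cells (log2 3.04, 2.79 to 3.31), *Ikzf2* 4.91-fold (log2 2.30, 2.17 to 2.42) and *Ikzf4* 3.10-fold (log2 1.63, 1.14 to 2.13). In the dKO-labelled library the same genes were 5.89-fold, 3.79-fold and 4.04-fold higher (log2 2.56, 1.92 and 2.01). *Ikzf3* was higher by less, with log2 values of 0.19 (0.09 to 0.28) and 0.39 (0.29 to 0.49), and *Ikzf1* was lower in both libraries, with log2 values of −0.31 (−0.40 to −0.22) and −0.73 (−0.84 to −0.62). Over all genes with at least 50 UMIs, 1.77% were at least 2-fold higher and 1.64% at least 2-fold lower in Treg-type cells of the WT-labelled library, and 5.72% and 2.98% in those of the dKO-labelled library. *Foxp3*, *Ikzf2* and *Ikzf4*, 3 of the 5 genes, were past 2-fold in both libraries, and none was at least 2-fold lower in either. The sizes in the dKO-labelled library moved with the gate: with at least 2 and at least 4 gate genes the log2 value of *Foxp3* was 3.66 and 1.66, that of *Ikzf2* 2.34 and 1.31 and that of *Ikzf4* 2.41 and 1.39. With 1 cell per clonotype they were 3.30, 2.42 and 2.84. That setting also left out every cell without a receptor sequence. A receptor beta chain was found in 47.4% of Treg-type cells of the WT-labelled library and 30.5% of those of the dKO-labelled library. In the WT-labelled library the value of *Ikzf3* with at least 4 gate genes was 0.08, with an interval that spanned 0 (−0.04 to 0.19).

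Between the libraries, 3 of the 5 genes were higher, 1 lower and 1 level in Treg-type cells. *Foxp3* was 2.79-fold higher in the dKO-labelled library (log2 1.48, 1.36 to 1.60), *Ikzf2* had a log2 ratio of 1.36 (1.29 to 1.43) and *Ikzf4* of 1.73 (1.41 to 2.07). *Ikzf1* had a log2 ratio of −1.10 (−1.20 to −0.996), or 0.467-fold. *Ikzf3* had a log2 ratio of −0.01 (−0.10 to 0.08). When the cells were gated after thinning to equal depth, *Foxp3* had 1.04, *Ikzf2* 0.79 and *Ikzf1* −0.95 in place of these ratios, and with 1 cell per clonotype *Ikzf4* had 1.08. Of all genes with at least 50 UMIs, 5.17% were at least 2-fold higher and 4.28% at least 2-fold lower in this comparison, with a median log2 ratio of 0.01. In the T cells outside the Treg-type class the log2 ratios were 1.96 for *Foxp3*, 1.73 for *Ikzf2*, 1.35 for *Ikzf4*, −0.21 for *Ikzf3* and −0.67 for *Ikzf1*, beside 1.48% of genes at least 2-fold higher and 2.08% at least 2-fold lower. There the libraries also differ in which T cell classes make up the sum. With 1 cell per clonotype *Foxp3* had 1.06 (0.48 to 1.63), *Ikzf2* 0.996 (0.76 to 1.23), *Ikzf4* 0.13 (−1.11 to 1.27) and *Ikzf3* 0.15 (−0.05 to 0.34), the last with its sign turned. Cells without a receptor sequence were left out there too, and a beta chain was found in 41.2% (WT) and 31.1% (dKO) of these T cells. The part of that loss in the shifts was not tested.

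By class, *Ikzf1* was lower almost throughout. Its log2 ratio lay below 0 with its interval in 6 of the 7 T cell classes, from −0.56 in naive-like to −1.22 in type 17-like cells, and the interval of the cycling T cells outside the Treg-type class spanned 0 (−0.70 to 0.08). It was also below 0 in plasmacytoid-like cells, at −0.42 (−0.52 to −0.31), a lineage outside the T cells. *Ikzf2* was higher with an interval above 0 in 6 of the 7 T cell classes, at log2 ratios of 1.03 to 1.77. The exception was the type 17-like class, where 14 and 11 UMIs gave −1.08 (−2.36 to 0.17), and the difference between classes was not tested. In plasmacytoid-like cells *Ikzf2* was also higher, at 0.45 (0.15 to 0.77), so its rise was not confined to T cells. *Foxp3* was higher with an interval above 0 in 4 of the 7 classes and *Ikzf4* in 3, and the remaining intervals spanned 0 or could not be computed. *Ikzf3* was lower with an interval below 0 in 3 of the 7, at −0.24 in cycling Treg-type, −0.34 in type 1-like and −0.49 in remaining T cells.

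**Figure D2:**
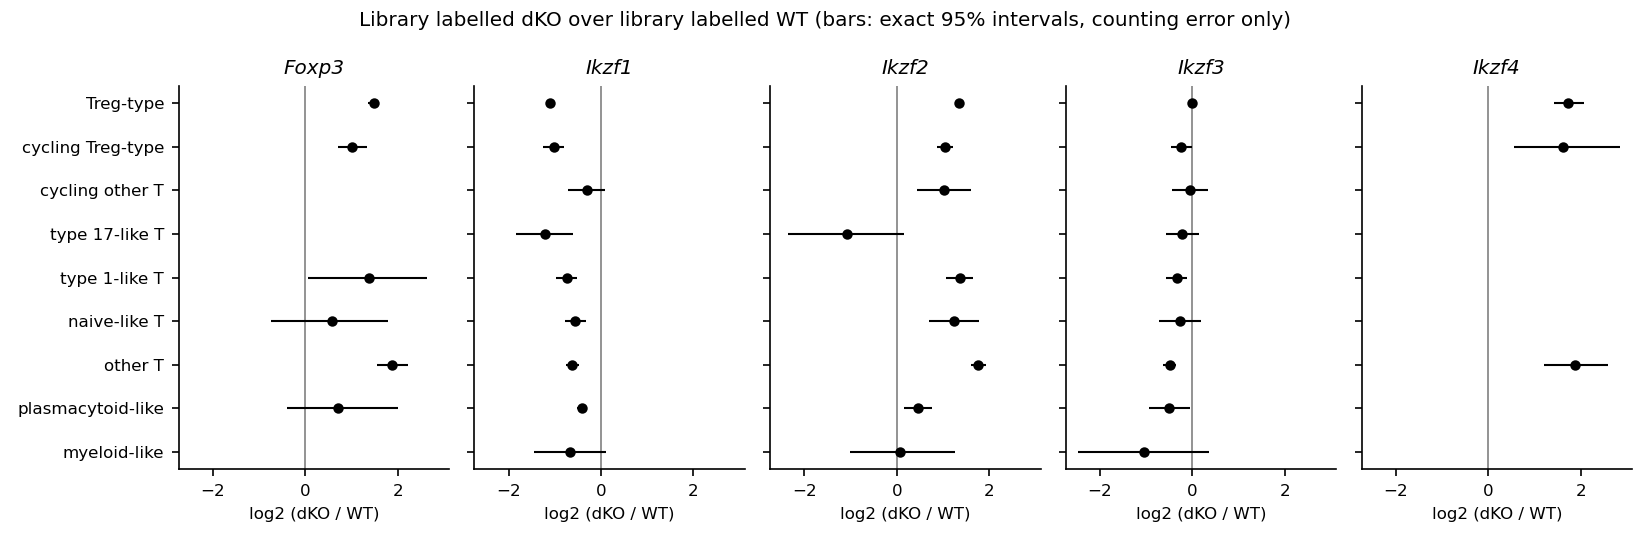
Log2 ratio of CPM, dKO-labelled over WT-labelled library (x axis), in 9 cell classes (y axis), drawn where the 2 libraries together held at least 20 UMIs. Bars are exact 95% intervals of counting error. The points of *Ikzf1* lie left of 0 in all 9 classes, and those of *Ikzf2* right of 0 in every class but the type 17-like one.

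The class could hold different cells in the 2 libraries, so the T cells were also split by how many of the 7 Treg gate genes they carried. *Foxp3* went from 4.91 CPM in T cells with none to 365 CPM in those with all 7 in the WT-labelled library, and from 9.43 to 402.5 CPM in the dKO-labelled library. *Ikzf2* went from 46.8 to 1181 CPM and from 92.4 to 1118 CPM. At the top of the scale, with 35 and 267 cells, the intervals of both genes overlapped between the libraries, and the log2 ratios were 0.14 (−0.24 to 0.53) and −0.08 (−0.29 to 0.14). At 3 gate genes the libraries lay far apart, with log2 ratios of 1.87 (1.60 to 2.14) for *Foxp3* and 1.91 (1.76 to 2.06) for *Ikzf2*. Cells with just 3 gate genes made up 886 of the 1883 Treg-type cells of the WT-labelled library, the cycling ones included, and 1740 of 7843 of the dKO-labelled library. Depth differed between the libraries at the same number of gate genes. The median was 2153 (WT) and 1234 (dKO) UMIs at 3 gate genes and 4861 and 2921 UMIs at 7. The part of depth in this split was not tested.

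*Ikzf1* stayed apart along the same scale. It went down from 405 CPM in T cells with no gate gene to 204 CPM in those with all 7 in the WT-labelled library, and from 255 to 110 CPM in the dKO-labelled library. Its log2 ratio between the libraries lay below 0 with its interval at all 8 numbers of gate genes, from −0.56 to −1.31, and was −0.89 (−1.43 to −0.31) at 7. *Ikzf4* was higher in the dKO-labelled library with an interval above 0 at 7 of the 8 numbers. *Ikzf3* had log2 ratios from −0.41 to 0.30, with 4 intervals spanning 0.

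**Figure D3:**
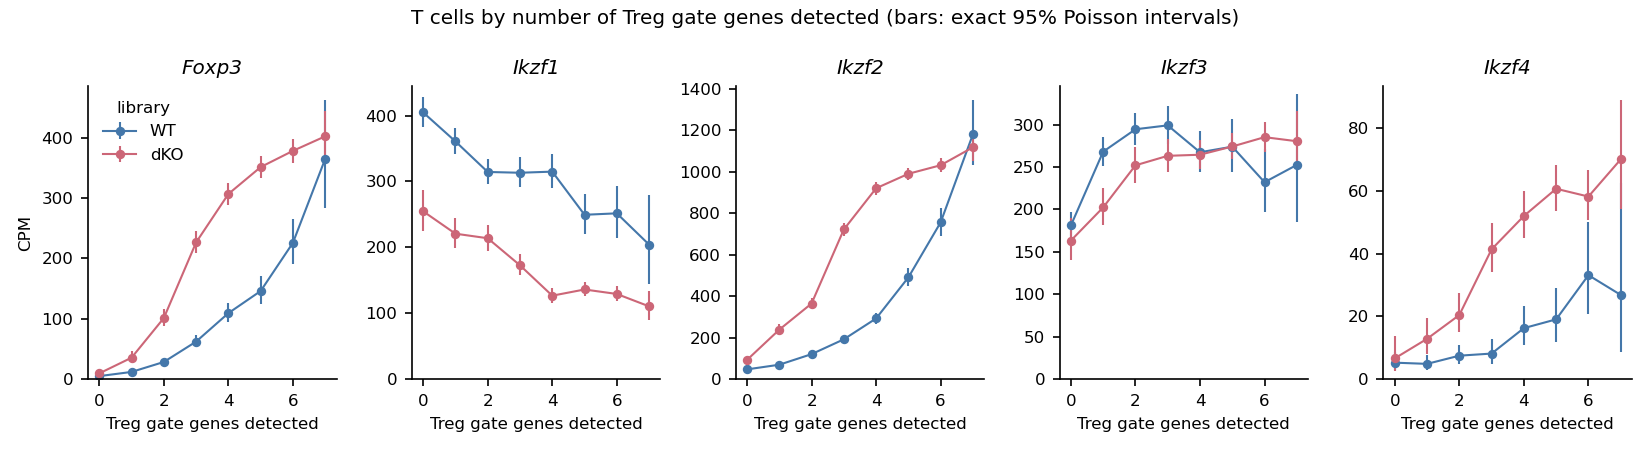
CPM of each gene (y axis) in T cells that carried 0 to 7 of the Treg gate genes (x axis) in the libraries labelled WT (blue) and dKO (red), with exact 95% Poisson intervals. For *Foxp3* and *Ikzf2* the lines lie apart at 1 to 6 gate genes and have overlapping intervals at 7, at 365 and 402.5 CPM and at 1181 and 1118 CPM, and for *Ikzf1* they stay apart throughout.

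Treg-type cells were also divided by *Foxp3* itself. A *Foxp3* UMI was found in 317 Treg-type cells of the WT-labelled library and 2816 of the dKO-labelled library. In these cells *Ikzf2* had 954 and 1163 CPM, a log2 ratio of 0.29 (0.19 to 0.39), while in the 1359 and 4692 Treg-type cells without one it had 252 and 875.5 CPM, a log2 ratio of 1.80 (1.70 to 1.90). The ratio of *Ikzf2* was larger in the cells in which no *Foxp3* was detected, and the difference between the 2 ratios was not tested. *Ikzf1* had 220 and 119 CPM in the cells with a *Foxp3* UMI, a log2 ratio of −0.89 (−1.12 to −0.66), and 306.5 and 147.5 CPM in those without, a log2 ratio of −1.05 (−1.17 to −0.94). *Ikzf4* had 33.8 and 70.4 CPM in the cells with a *Foxp3* UMI (log2 1.06, 0.54 to 1.62), and *Ikzf3* 275 and 281 CPM (log2 0.03, −0.16 to 0.22). How far the makeup of the gate sets the differences in *Foxp3*, *Ikzf2* and *Ikzf4* was not tested.

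Co-detection was counted after each cell had been thinned to 1500 UMIs, which left out 4520 and 7647 shallower cells of the 2 libraries. In Treg-type cells 13.2% (11.4 to 15.2) of 1292 cells of the WT-labelled library and 34.0% (32.4 to 35.6) of 3572 of the dKO-labelled library had a *Foxp3* UMI, or 18.9% and 37.5% before thinning. In plasmacytoid-like cells the shares were 0.468% and 0.609%. An *Ikzf2* UMI was found in 61.4% (53.7 to 68.7) of the 171 Treg-type cells with *Foxp3* and in 22.5% (20.1 to 25.0) of the 1121 without it in the WT-labelled library, a difference of 38.9 points. In the dKO-labelled library 1214 cells had *Foxp3* and 71.1% of them (68.5 to 73.6) also *Ikzf2*, against 57.3% (55.3 to 59.3) of the 2358 without, 13.8 points apart. That difference was 8.47 points with at least 4 gate genes and 21.5 points with 1 cell per clonotype. The cells with both Foxp3 and Helios RNA made up 8.13% of Treg-type cells in the former and 24.2% in the latter.

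*Ikzf1* was detected in 25.7% (19.4 to 33.0) of Treg-type cells with a *Foxp3* UMI and 34.8% (32.0 to 37.7) of those without in the WT-labelled library, where the intervals overlapped, and in 14.0% (12.1 to 16.1) and 19.1% (17.5 to 20.7) in the dKO-labelled library, where the intervals did not overlap. Without thinning the dKO shares were 19.4% and 19.3%, and the cells with a *Foxp3* UMI were then the deeper ones (median 1669 against 1362 UMIs). For *Ikzf3* the shares lay within 3 points of each other, with 28.7% and 30.2% (WT) and 29.8% and 32.7% (dKO), and the sign of the difference was not stable: without thinning it was 2.72 and 3.55 points in favour of the cells with *Foxp3*. *Ikzf4* was found in 3.51% and 2.23% of WT cells, with overlapping intervals, and in 9.56% (7.96 to 11.4) and 6.02% (5.10 to 7.06) of dKO cells, where they did not overlap. That dKO difference of 3.53 points (0.90 to 6.25) fell to 1.71 points (−0.24 to 3.76) with cells thinned to 1000 UMIs, and its interval also spanned 0 with cells thinned to 2000 UMIs (2.90 points), with at least 4 gate genes (2.56 points) and with 1 cell per clonotype (2.94 points).

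The amount of *Ikzf2* also went with the amount of *Foxp3*. In thinned Treg-type cells with 0, 1, 2 and 3 or more *Foxp3* UMIs it was 288, 980, 1263 and 1593 CPM in the WT-labelled library, the last from 18 cells, and 859, 1120, 1194 and 1386 CPM in the dKO-labelled library. The step from 0 to 1 was the largest in both. From 1 UMI on, neighbouring intervals of *Ikzf2* overlapped in both libraries, while those at 1 and at 3 or more did not. The share of dKO cells with an *Ikzf2* UMI was 70.7%, 74.8% and 65.1% at 1, 2 and 3 or more *Foxp3* UMIs. *Ikzf1* was 303, 209, 123 and 333 CPM in the WT-labelled library, the last with an interval of 152 to 633, and 153, 111, 79.7 and 106 CPM in the dKO-labelled library, with overlapping intervals from 1 UMI on in both.

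**Figure D4:**
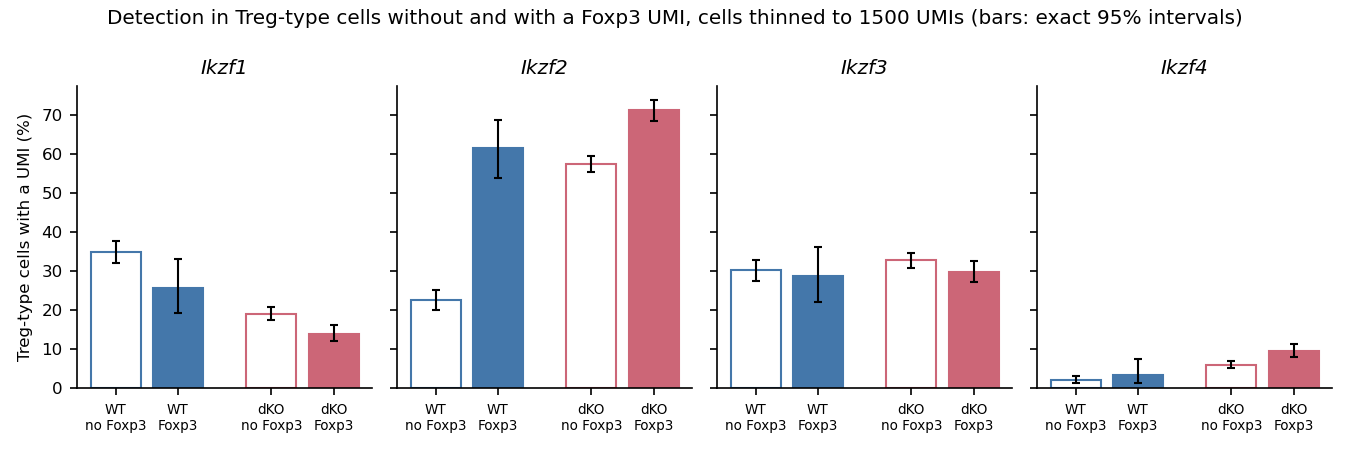
Share of Treg-type cells with a UMI of each Ikaros gene (y axis, percent), without (open) and with (filled) a *Foxp3* UMI, in the libraries labelled WT (blue) and dKO (red), each cell thinned to 1500 UMIs. Bars on the columns are exact 95% Clopper-Pearson intervals. *Ikzf2* is found in 61.4% and 71.1% of the cells with *Foxp3*, and in 22.5% and 57.3% of those without.

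Treg-type cells were then divided by genes of known Treg states, by whether a UMI was found in the unthinned cell. No background share was set for these genes. Cells with a UMI had the higher median depth in every division except *Il10* in the WT-labelled library (2008 against 2343 UMIs). For *Il1rl1* the medians were 3016 against 2248 UMIs (WT) and 2025 against 1424 UMIs (dKO). *Il1rl1* encodes the IL-33 receptor and *Klrg1* a receptor of differentiated effector cells, *Areg* encodes the repair factor amphiregulin and *Il10* a suppressive cytokine, and *Pdcd1* encodes the checkpoint receptor PD-1. In the WT-labelled library *Foxp3* had 399.5 CPM in the 195 cells with a *Klrg1* UMI and 84.6 CPM in the others (log2 2.24, 2.00 to 2.48), and *Ikzf2* had 815 and 326 CPM (log2 1.32, 1.17 to 1.47). In the dKO-labelled library, where 2565 cells had a *Klrg1* UMI, *Foxp3* had 417 and 310 CPM (log2 0.43, 0.34 to 0.51) and *Ikzf2* 1062 and 960.0 CPM (log2 0.15, 0.10 to 0.20). The *Foxp3* intervals of cells with *Klrg1* overlapped between the libraries (352 to 452 and 399.6 to 436 CPM), and those of cells without it did not. For *Areg*, *Foxp3* had 273 and 420.3 CPM in cells with it and 81.0 and 313 CPM in cells without it, and for *Il1rl1* 300.2 and 457 against 97.1 and 339.5 CPM, so these cells differed between the libraries on both sides of the division.

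Cells with *Pdcd1* had less *Foxp3* and more *Ikzf2* than the other Treg-type cells in both libraries, with log2 values of −0.30 and −0.13 for *Foxp3* and 0.57 and 0.10 for *Ikzf2*, all 4 intervals off 0. *Il10* cells of the dKO-labelled library had more *Ikzf3*, at 365 against 261 CPM (log2 0.48, 0.38 to 0.59), while the interval of *Ikzf2* spanned 0 (0.00, −0.06 to 0.06). In *Il10* cells of the WT-labelled library, 65 cells, the interval of *Ikzf3* spanned 0 (0.22, −0.17 to 0.58) and *Ikzf2* had 633 against 379.5 CPM (log2 0.74). *Ikzf1* was lower in *Areg* cells of both libraries, with log2 values of −0.30 (−0.50 to −0.11) and −0.45 (−0.60 to −0.30).

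**Figure D5:**
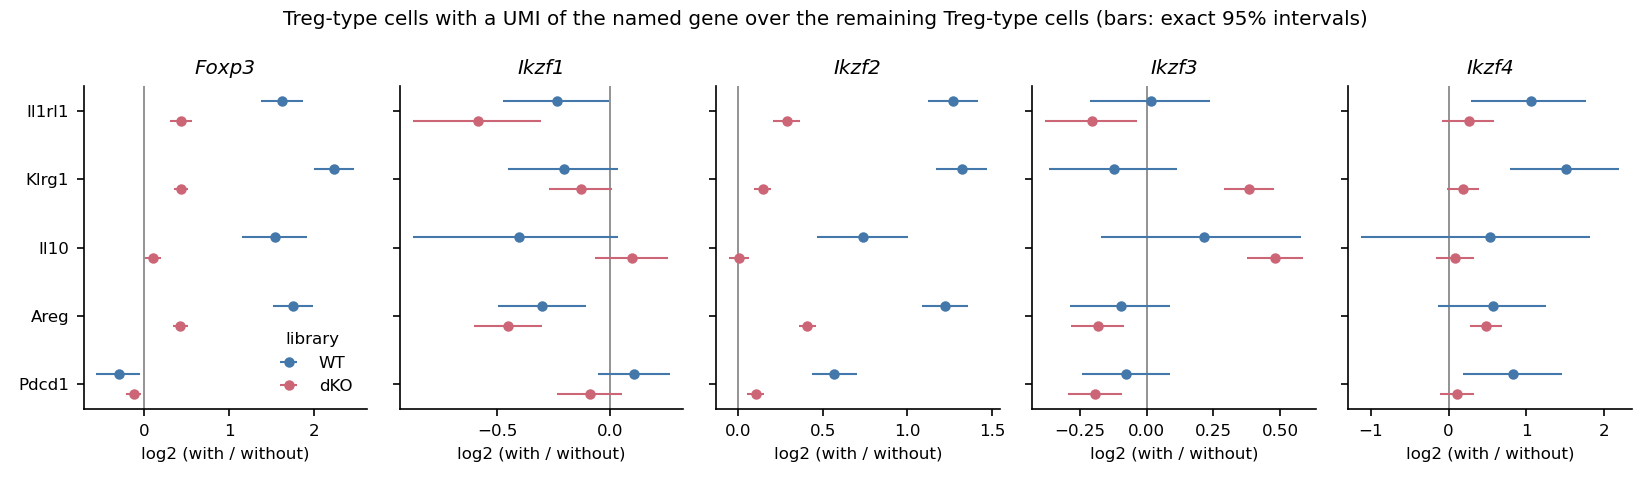
Log2 ratio of CPM in Treg-type cells with a UMI of the named gene over Treg-type cells without one (x axis) for each of 5 divisions (y axis), in the libraries labelled WT (blue) and dKO (red), with exact 95% intervals. The *Foxp3* and *Ikzf2* ratios of *Il1rl1*, *Klrg1*, *Il10* and *Areg* cells are larger in the WT-labelled library.

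Receptor sequences, recovered for 3845 and 4906 cells, allowed the largest clone to be set apart. The largest clonotype of the dKO-labelled library held 468 cells, 363 of them Treg-type. Those 363 cells had 375 CPM of *Foxp3* (327.5 to 428), against 331.5 CPM (316 to 348) in the other Treg-type cells with a receptor, with overlapping intervals, and less *Ikzf2*, with 754 CPM (686 to 828) against 983 CPM (956 to 1010). *Ikzf4* had 69.6 CPM (49.97 to 94.5) in the clone and 48.9 CPM (43.0 to 55.3) outside it, also with overlapping intervals. The largest clonotype of the WT-labelled library held 100 cells, of which 7 were Treg-type, and *Foxp3*, *Ikzf2* and *Ikzf4* had 0 UMIs in those 7, where the exact interval reaches up to 154 CPM.

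The genes that work with these factors were read from lists, which were chosen with earlier results of these data known. Of 18 genes for known partners or regulators of Foxp3, none was at least 2-fold higher and 3 were at least 2-fold lower in Treg-type cells of the dKO-labelled library, beside the 5.17% and 4.28% of all genes, and the list's median log2 ratio was −0.25. The 3 were *Bach2* (−1.27, −1.38 to −1.15), a repressor that holds T cells in a less differentiated state, *Foxp1* (−1.09, −1.19 to −0.99), a forkhead factor of quiescent T cells, and *Smad3* (−1.29, −1.44 to −1.14), which carries TGF-β signals. *Satb1*, a chromatin organiser, had −0.93 and *Runx1*, a DNA-binding partner of Foxp3, −0.51. *Bach2* and *Satb1* were also at least 2-fold lower in Treg-type than in other T cells of the dKO-labelled library (−1.34 and −1.26), and in the WT-labelled library their values were −0.40 and −0.71.

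The corepressors that Ikaros proteins recruit, and the ligase that in human cells degrades Ikaros and Aiolos under thalidomide-type drugs, were read in the same way. Of 16 corepressor genes 15 were measured, with none past 2-fold in either direction between the libraries in Treg-type cells (median log2 ratio −0.01), a count near the 5.17% and 4.28% of all genes, with values from −0.39 for *Mbd2* to 0.57 for *Sin3b*. The 5 genes of the cereblon ligase had none past 2-fold either, too few to set against those shares, and *Crbn*, its substrate receptor, had −0.26 (−0.39 to −0.13). *Ikzf5*, which encodes Pegasus, the remaining family member, had 0.05 (−0.38 to 0.49).

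Of 20 effector genes of Tregs, 19 were measured, and 13 were at least 2-fold higher and none at least 2-fold lower in Treg-type cells of the dKO-labelled library, beside 5.17% and 4.28% of all genes. This list too was chosen with earlier results known, so its counts are descriptions. Among them *Il10* had a log2 ratio of 2.75, *Lag3*, an inhibitory receptor, 3.51, *Klrg1* 2.33 and *Tnfrsf9*, a costimulatory receptor, 2.05. *Icos* (0.05, −0.01 to 0.10) was level, and *Nrp1* (−0.87, −1.03 to −0.70) and *Il1rl1* (−0.27, −0.46 to −0.09) were lower. Relative to other T cells of the same library, 12 of the 19 were at least 2-fold higher in Treg-type cells in the WT-labelled library, beside 1.77% of all genes, and 14 in the dKO-labelled library, beside 5.72%. The Treg-type class was gated on Treg genes, so these counts are not independent of the gate.

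The genes whose profile was most like each member's were ranked by Pearson's r of log2(CPM + 10) over 18 profiles, 9 classes in 2 libraries, among 5721 genes. These r values are descriptions, since the profiles of a library share its depth and free RNA. For *Foxp3* the nearest were *Tnfrsf4* (r = 0.95), *Klrg1* (0.94), *Ccn4* (0.92), *Il1rl1* (0.91) and *Ikzf2* (0.90). *Ikzf2* was nearest to *Klrg1* (0.96), *Dusp14*, *Tigit*, *Tnfrsf4* and *Tnfrsf9*. *Tnfrsf4* and *Tigit* are among the Treg gate genes. *Ikzf3* was nearest to *Rora* (0.98), a nuclear receptor of type 17 and innate-like cells, and then to *Cxcr6*, *Icos*, *Smap1* and *Podnl1*. *Ikzf1* was nearest to *Tespa1* (0.93), a gene of T cell receptor signalling, *Dipk1a*, *Zfp644*, *Btla* and *Smarca2*, and *Ikzf4* to *Ccr3* (0.93), *Mrps6*, *Dusp4*, *Neb* and *Coq8a*. Among the members themselves *Ikzf2* and *Ikzf4* had r = 0.83, *Foxp3* and *Ikzf4* r = 0.78, and *Foxp3* and *Ikzf1* r = −0.21.

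Droplets with under 8% of UMIs from ribosomal protein genes, 374 and 481, were set apart before gating. They had the highest *Ikzf2* of any class, 779 and 2875 CPM, and *Ikzf1* at 925.5 and 406 CPM, with the same directions between the libraries as in Treg-type cells (log2 1.88 and −1.19). In them the share of ribosomal protein UMIs was 3.17% and 2.95%, and *Malat1*, a nuclear RNA, had 14180 and 16430 CPM, against 6709 and 6509 CPM in Treg-type cells. Neutrophil granule genes, *Ngp*, *Camp*, *Ltf* and *Lcn2* among them, led the class, and *S100a8* had 10.0 CPM in its droplets of the WT-labelled library and 11341 CPM in those of the dKO-labelled library. The part of neutrophil RNA in the values of the members was not tested.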

How the data were processed

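Per the labels and the study's methods, cells were captured with the 10x 5′ kit and reads aligned to mm10 with Cell Ranger, 7.0.1 per the file headers. Whether introns were counted is not given in the sources used here. The deposited counts are UMIs per gene and cell, unnormalised, and the deposited receptor tables give UMI counts per contig. Cells with over 200 genes and under 5% mitochondrial UMIs were kept (Python 3.11.15, numpy 2.4.6, scipy 1.17.1, pandas 2.3.3) and gated on marker genes. UMIs were summed per class and library, with exact Poisson, conditional binomial or Clopper-Pearson 95% intervals. PCR and pooling errors are not covered. No count model was fitted, as each genotype has 1 library. Positions and sequences come from GENCODE M21 (GRCm38), which held 32158 of the 32285 gene IDs. No doublet caller was run. Droplets passing the gates of 2 lineages, 453 and 1050, were left out as mixed, and 1276 and 1344 cells passed none. The intervals and the thinning were tested on simulated Poisson counts. In these UMIs do not cluster by cell or clone, so the coverage of the intervals in real cells was not tested.

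The members and lists were chosen with earlier results of these data known. The genes named are the 5 members in each class, the 5 genes most correlated with each, and the genes of the lists. Alternatives were other Treg gates, cell filters, depths, clone and doublet handling, scaling with edgeR 4.0.16 (R 4.3.3) TMM factors, other thinning depths and another pseudocount. Cells with a *Foxp3* UMI alone, and the removal of shared barcodes, were added after seeing the data. A planned division of Treg-type cells is not reported here.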

Additional observations from a re-analysis of the deposited data

Results flagged for a closer look

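*Ikzf3* was higher in the innate lymphoid-like cells of the dKO-labelled library, at a log2 ratio of 2.75 (0.26 to 6.09), while its interval lay below 0 in 5 other gated classes (cycling Treg-type, type 1-like, remaining T, plasmacytoid-like and B cell-like). The value came from 2 UMIs in 40 cells and 6 UMIs in 25 cells, and the difference between classes was not tested.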

How the results depend on the processing

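No paired analysis was possible because each genotype has 1 library. Of 355 recomputed values, 66 moved, which for ratios means out of the 95% interval of the reported value and for differences out of its wider range. For shares of genes it means by over 1.5 times, and for nearest genes any change. A further 2, with a reported interval off 0, changed sign. For *Foxp3* in Treg-type cells, dKO over WT, the log2 ratio of 1.48 became 1.84 and 1.19 with at least 2 and 4 gate genes, 1.25 without cells over 5000 UMIs, 1.04 with gates on thinned cells, 1.15 with 1 cell per clonotype and 1.24 from each cell's own CPM. Under the same 6 settings *Ikzf2* (1.36) became 1.67, 1.03, 1.26, 0.79, 1.10 and 1.28, and in cells with a *Foxp3* UMI 0.29. *Ikzf1* (−1.10) became −0.95 with gates on thinned cells and −0.89 in cells with a *Foxp3* UMI. For *Ikzf2* in Treg-type over other T cells, the WT value of 2.30 became 2.47 without cells over 5000 UMIs and 2.42 with gates on thinned cells. The dKO value of 1.92 became 2.34 and 1.31 with at least 2 and 4 gate genes, 1.67 with gates on thinned cells, 2.42 with 1 cell per clonotype and 1.70 from each cell's own CPM. The dKO co-detection difference of *Ikzf2* (13.8 points) became 19.8 and 8.47 with at least 2 and 4 gate genes and 21.5 with 1 cell per clonotype. The values with an interval off 0 that changed sign were the dKO co-detection difference of *Ikzf1* (−5.08 points), at 0.0442 without thinning, and *Ikzf3* outside the Treg-type class (−0.21), at 0.15 with 1 cell per clonotype. Values whose interval spanned 0 also crossed it: the co-detection difference of *Ikzf3* ranged from −4.65 to 8.67 points (WT) and −4.15 to 3.55 (dKO), that of *Ikzf4* (WT) from −0.55 to 4.91, and the Treg-type log2 ratio of *Ikzf3* from −0.11 to 0.07. The causes were not tested. TMM scaling raised the log2 ratios by 0.05 in Treg-type and 0.03 in other T cells, to 1.53 for *Foxp3* and, across 0, to 0.03 for *Ikzf3* in Treg-type cells, each within the reported interval. Leaving out the 245 shared barcodes, chosen after seeing the data like the cells with a *Foxp3* UMI, moved 1, the WT co-detection difference of *Ikzf3* (−1.50 to 8.67 points, −1.60 to 19.3). With no filter on low counts, 7.39% of genes were at least 2-fold higher and 12.7% lower in Treg-type cells, and 9.68% and 6.04% in other T cells. Of the 5 nearest genes at log2(CPM + 1), 3 (*Foxp3*), 5 (*Ikzf1*), 4 (*Ikzf2*), 5 (*Ikzf3*) and 2 (*Ikzf4*) were shared. Depth limits *Ikzf4* most, with 87 UMIs in WT Treg-type cells.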

Other observations

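Droplets outside the gated classes also held the members. *Foxp3* had 30.1 CPM in the 453 mixed droplets of the WT-labelled library and 113 CPM in the 1050 of the dKO-labelled library, *Ikzf2* 98.5 and 355 CPM, and *Ikzf1* 371 and 218 CPM. The cells that passed no gate had 33.0 and 183 CPM of *Foxp3* and 307 and 176 CPM of *Ikzf1*.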
